A study of Mus musculus with 9 samples.

Results

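Noncoding host genes of small nucleolar RNAs (snoRNAs) are genes whose spliced RNA encodes no known long protein and whose introns carry snoRNAs. The 9 hosts considered were Gas5, Snhg1, Snhg3, Snhg5, Snhg6, Snhg7, Snhg8, Snhg11 and Snhg12, taken from a list of gene symbols. The list was chosen with earlier results of these data known. A host counted as measured where at least 1 probe set named it and no other gene, and the probe set with the highest mean signal then stood for it. This held for 3 of the 9 hosts (Gas5, Snhg5 and Snhg11), of 19933 genes measured that way in all. Snhg7 and Snhg8 had only a probe set shared with a small RNA, and Snhg1, Snhg3, Snhg6 and Snhg12 were on no named probe set.

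The samples were mouse yolk sacs at embryonic day 9.5 on a mixed SV 129/C57BL/6 background, with 3 knockout (KO, Rnh1-/-), 3 heterozygous (HET, Rnh1+/-) and 3 wild-type (WT, Rnh1+/+) samples, 1 Affymetrix array each. Rnh1 makes the ribonuclease inhibitor, which sits in the cytosol and blocks ribonucleases of the secreted type. The labels state that maternal tissue was kept out. They give no treatment and do not say which stretch of Rnh1 was removed, whether embryos were pooled, or whether samples came from separate litters, so the p-values measure only the spread between these arrays. Signals are log2 values, in which a difference of 1 is a doubling, and the number of arrays limits the precision of every value below.

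A snoRNA is cut from the intron of its host after splicing and guides the chemical modification, or in some cases the cleavage, of ribosomal RNA. Box C/D snoRNAs guide methylation and box H/ACA snoRNAs guide pseudouridylation. The spliced exons left behind are a separate product: in mammalian cells Gas5 RNA belongs to the 5′ terminal oligopyrimidine (5′TOP) class, whose translation follows growth signals, and is degraded by nonsense-mediated decay when translated. In the yolk sac at this stage the visceral endoderm and the first blood cells grow and make large amounts of protein.

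The promoters of the 3 measured hosts, and of 2 neighbouring hosts on chromosome 4 whose small RNAs are described further on, are printed here. Each line gives the 50 bases before and the 50 bases from the RefSeq transcription start (build GRCm38.p6), read 5′ to 3′ on the gene's strand. Capitals mark a match to TATAA or TATATA on either strand in the 50 bases before the start, where there is one, and the longest run of C and T between 10 bases before and 20 bases after the start. Gas5 has 2 annotated starts.
Gas5, first start, chr1:161034551-161034650, plus strand: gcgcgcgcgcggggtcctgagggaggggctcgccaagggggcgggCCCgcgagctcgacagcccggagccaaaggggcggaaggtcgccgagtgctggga
Gas5, second start, chr1:161035116-161035215, plus strand: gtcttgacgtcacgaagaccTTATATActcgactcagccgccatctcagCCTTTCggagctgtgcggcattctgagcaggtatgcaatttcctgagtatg
Snhg5, chr9:88522848-88522947, minus strand: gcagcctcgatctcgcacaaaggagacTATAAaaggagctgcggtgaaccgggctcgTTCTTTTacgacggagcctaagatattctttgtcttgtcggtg
Snhg11, chr2:158375663-158375762, plus strand: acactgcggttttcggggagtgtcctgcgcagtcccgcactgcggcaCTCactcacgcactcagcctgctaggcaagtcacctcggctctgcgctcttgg
Snhg12, chr4:132308628-132308727, plus strand: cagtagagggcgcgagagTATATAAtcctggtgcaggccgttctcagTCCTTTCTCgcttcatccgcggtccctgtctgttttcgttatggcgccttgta
Snhg3, chr4:132353637-132353736, minus strand: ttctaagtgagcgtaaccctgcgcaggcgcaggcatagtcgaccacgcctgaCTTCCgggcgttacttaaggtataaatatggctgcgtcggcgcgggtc

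Of the 9 hosts, 8 had a start in the promoter table, with 9 starts in all. A TATAA or TATATA match lay in the 50 bases before 6 of the 9 starts, in 6 of these 8 hosts, against 6.77% of all 32851 promoters in the table. The second Gas5 start, Snhg5 and Snhg12 hold the motif, whereas the first Gas5 start, Snhg11 and Snhg3 do not. The run of pyrimidines was 9 bases long in Snhg12, 7 in Snhg5 and 6 at the second Gas5 start, lengths that 11.6%, 24.6% and 36.3% of all promoters reach or pass. In Snhg11 and at the first Gas5 start it was 3 bases long, which 90.8% of promoters reach, and in Snhg3 5 bases (54.6%). These matches describe letters in a window and say nothing of which factor binds there.

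Before the results, the samples themselves need describing. The deleted gene, Rnh1, had log2 signals of 6.28, 6.78 and 6.87 in KO arrays, 9.75, 9.75 and 9.77 in HET arrays and 10.39, 10.42 and 10.32 in WT arrays. On the second principal component, which held 18.7% of the variance of the genes tested, KO 1 (0.72) and WT 2 (0.41) stood at 1 end. HET 3 (-0.45) stood at the other. Xist, which coats the inactive X chromosome of female cells, was between 11.05 and 11.67 in all KO arrays, against 1 of 3 HET and 2 of 3 WT arrays above 10. The Y-linked gene Eif2s3y was at 7.62, 7.27 and 4.41 in KO arrays, 8.68, 7.87 and 8.48 in HET arrays and 8.81, 8.15 and 4.34 in WT arrays. KO 1, KO 2, HET 2 and WT 2 thus had signal of both genes, and the labels do not give the sex. The mean log2 signal of the visceral endoderm markers (9 of 9 above the filter on low signals) ranged from 12.27 to 12.45 in KO, from 12.53 to 12.68 in HET and from 12.56 to 12.66 in WT arrays. The same mean for 5 of 5 extraembryonic mesoderm markers was 10.85 to 10.98 in KO, 10.53 to 10.68 in HET and 10.50 to 10.62 in WT arrays. For 7 erythroid markers of a list of 8 it was 10.77 to 11.25 in KO, 11.07 to 11.40 in HET and 11.16 to 11.35 in WT arrays, and for 6 of 6 endothelial markers 9.80 to 9.89 in KO, 9.77 to 9.95 in HET and 9.85 to 9.97 in WT arrays. The endothelial mean covers markers that differed in direction. Tek and Tie1 were lower in all KO arrays than in HET and WT arrays, and Esam was higher, while Pecam1, Cdh5 and Kdr overlapped. Of 8 trophoblast markers 4 had a probe set and only Ascl2 passed the filter, and their mean was highest in KO 3, at 6.35, against at most 5.14 in HET and 5.33 in WT arrays. The mean of 6 markers of the embryo proper, 2 of them above the filter, was also highest in KO 3 (7.04, against at most 6.38 in HET and 6.36 in WT arrays). That of 6 decidua markers, 4 of them above the filter, was 7.66 to 7.98 in KO, 7.04 to 7.74 in HET and 7.48 to 7.87 in WT arrays. These 4 differed in direction. Des and Hand2 were higher in KO than in HET and WT arrays, and Igfbp1 was lower (7.01 to 7.31, against 8.16 to 8.8 and 8.21 to 8.94). Prl8a2 was at 9.76 to 11.34 in KO, 6.5 to 9.75 in HET and 8.9 to 10.72 in WT arrays. The part of these differences in the results on the hosts was not tested, and in whole tissue fewer cells of a type and less RNA per cell cannot be told apart.

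Snhg5 and Gas5 were higher in KO yolk sacs than in both HET and WT yolk sacs, and Snhg11 gave no difference past the test. Snhg5, the host of the Snord50 RNAs, was 1.76-fold higher in KO than in WT. Gas5, a growth-arrest-associated RNA with 8 snoRNA genes inside it, was 1.34-fold higher on its brightest probe set and 1.68-fold higher on another. HET and WT did not differ past the test in any of the 3 hosts, but 0 of all 13207 genes tested passed between them. Even Rnh1, lower in HET than in WT by 0.62 without overlap, did not pass (limma adjusted p = 0.939). A missing call therefore does not show that HET and WT are alike. A difference passed where the limma fit over all 13207 genes tested gave a Benjamini-Hochberg adjusted p under 0.05. By this rule 2 of 3 hosts were higher in KO than in WT and 0 lower, while of all genes tested 23.5% passed, 8.27% higher and 15.2% lower. Against HET the same 2 hosts were higher, while 21.8% of all genes passed, 8.17% higher and 13.6% lower.

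**Figure D1:**
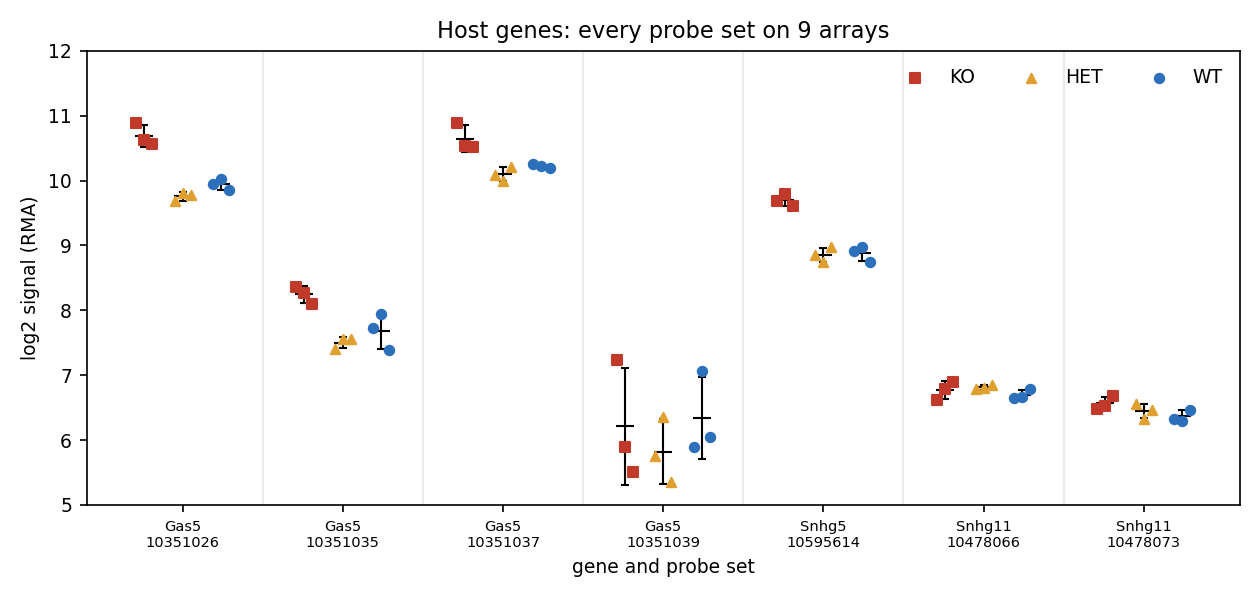
Log2 signal of the 3 measured hosts on each array, for each of their 7 probe sets (number under the gene), with KO, HET and WT yolk sacs from left to right. Points are arrays and bars the mean ± SD of 3 arrays. All 3 KO arrays lie above the HET and WT arrays for Snhg5 (9.61 to 9.79 in KO) and for 3 of 4 Gas5 probe sets, and the genotypes overlap for Gas5 10351039 and the chosen Snhg11 probe set, 10478066.

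The log2 signal of Snhg5 was 9.68, 9.79 and 9.61 in KO arrays, 8.85, 8.75 and 8.97 in HET arrays and 8.91, 8.98 and 8.74 in WT arrays. Every KO array lay above every other array. Of all genes 15.8% showed this against WT and 15.7% against HET, and the share that showed both was not counted. The KO mean was 9.69 ± 0.09, the HET mean 8.86 ± 0.11 and the WT mean 8.88 ± 0.13 (SD, n = 3 arrays each). The difference between KO and WT was 0.81 on the log2 scale (SE 0.09, 95% interval 0.62 to 1.01, limma adjusted p = 0.00127), which ranked 54 among the 13207 genes by p. Against HET it was 0.83, or 1.78-fold (limma adjusted p = 0.000929). HET and WT differed by -0.02, with an interval from -0.21 to 0.17 (limma adjusted p = 0.986). Neither the 2 snoRNA genes inside Snhg5 nor their levels were analysed here, since no probe set names 1 of them alone.

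Gas5 was measured by 4 probe sets, 3 of which passed the filter on low signals. The brightest on average, 10351037, was at 10.88, 10.53 and 10.52 in KO arrays, 10.09, 10 and 10.21 in HET arrays and 10.26, 10.23 and 10.19 in WT arrays. The genotypes did not overlap between KO and the other arrays, and KO 1 was the highest of all. The KO mean was 10.64 ± 0.21, the HET mean 10.10 ± 0.10 and the WT mean 10.22 ± 0.03 (SD, n = 3 arrays each). KO minus WT was 0.42 (SE 0.10, 95% interval 0.19 to 0.65, limma adjusted p = 0.0176), ranked 1754 of 13207. KO minus HET was 0.54, or 1.46-fold (interval 0.32 to 0.77, limma adjusted p = 0.00642), and HET minus WT was -0.12 (limma adjusted p = 0.939). The call against WT was lost without WT 1, WT 2 or WT 3 (limma adjusted p = 0.0509, 0.0511 and 0.0507) and where the probe sets of each gene were averaged (0.40, adjusted p = 0.127). The call against HET held in all 22 alternatives without a fold threshold, but 1.46-fold falls short of a required 1.5-fold.

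Of the other 3 Gas5 probe sets, 2 gave larger KO minus WT differences. Probe set 10351026 was at 10.88, 10.62 and 10.56 in KO arrays, 9.68, 9.81 and 9.78 in HET arrays and 9.95, 10.02 and 9.85 in WT arrays. Here KO lay above both other genotypes and HET lay below WT, with no overlap in either case. Among all genes 5.98% lay lower in HET than in WT without overlap. In a separate limma fit over all 17351 probe sets that passed the filter, in which 20.2% passed against WT (7.64% higher) and 18.9% against HET (7.83% higher), its KO minus WT difference was 0.75 (SE 0.09, interval 0.54 to 0.95, adjusted p = 0.00197). KO minus HET was 0.93, or 1.91-fold (adjusted p = 0.00118), and HET minus WT was -0.18 (adjusted p = 0.908). Probe set 10351035 was at 8.36, 8.27 and 8.10 in KO arrays, 7.40, 7.55 and 7.55 in HET arrays and 7.72, 7.95 and 7.39 in WT arrays, with KO above all the others. It was 1.47-fold higher in KO than in WT (0.56, SE 0.13, adjusted p = 0.0202) and 1.67-fold higher than in HET (0.74, adjusted p = 0.00679). Its call against WT was lost without WT 1 (adjusted p = 0.0591), without KO 2 (0.058) and with only KO and WT in the fit (0.0555). The fourth probe set, 10351039, stayed below the filter and was not tested. It was at 7.23, 5.89 and 5.51 in KO arrays, 5.75, 6.36 and 5.36 in HET arrays and 5.90, 7.07 and 6.05 in WT arrays, a spread within each genotype wider than any shift between them.

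Snhg11, a host known for its high level in mouse brain, was the dimmest of the 3. Its chosen probe set lay below every array median (7.07 to 7.2) and little above the cut-off of the filter on low signals (6.35 to 6.57). A small difference in so dim a signal could be missed. Snhg11 was at 6.62, 6.79 and 6.90 in KO arrays, 6.78, 6.80 and 6.85 in HET arrays and 6.65, 6.66 and 6.78 in WT arrays. The genotypes overlapped, and KO minus WT was 0.07 with an interval from -0.10 to 0.25 (limma adjusted p = 0.514). KO minus HET was -0.04 (adjusted p = 0.762) and HET minus WT 0.11 (adjusted p = 0.939). Its second probe set, 10478073, was at 6.48, 6.53 and 6.68 in KO arrays, 6.55, 6.33 and 6.47 in HET arrays and 6.33, 6.29 and 6.47 in WT arrays, so KO lay just above WT without overlap. KO minus WT was 0.20 there (interval 0.01 to 0.39, limma adjusted p = 0.121 over all probe sets).

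Snhg5 and Gas5 also passed in the fits below, which took account of some arrays that stood apart. Gas5 did not pass against WT without WT 2 alone (0.42, limma adjusted p = 0.0511). Without WT 2 and KO 1 together, KO minus WT was 0.88 for Snhg5 (limma adjusted p = 0.00525) and 0.30 for Gas5 (0.0357). Without KO 3, which had the most trophoblast and embryo signal, it was 0.86 (0.0039) and 0.48 (0.0201). With the level of the Y-linked gene Eif2s3y on each array as a covariate it was 0.85 (0.00183) and 0.44 (0.0169).

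The second question was whether the small RNAs inside the hosts differed along with the hosts. Which stretch of a host each probe set covers was not analysed here, so its signal is that of the host's probe set and not of named exons. RefSeq places 30 snoRNA genes inside the 9 hosts by position, and 7 of them had a probe set of their own, all above the filter. Only for Gas5 and Snord47 were the host and a small RNA inside it both measured. Snord47, a box C/D snoRNA, was at 9.07, 8.49 and 8.26 in KO arrays, 8.46, 8.56 and 8.57 in HET arrays and 8.60, 8.87 and 8.60 in WT arrays. KO held both the highest and the lowest of the 9 arrays. KO minus WT was -0.08, with an interval from -0.49 to 0.32 (limma adjusted p = 0.76), and KO minus HET was 0.08 (adjusted p = 0.812).

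**Figure D2:**
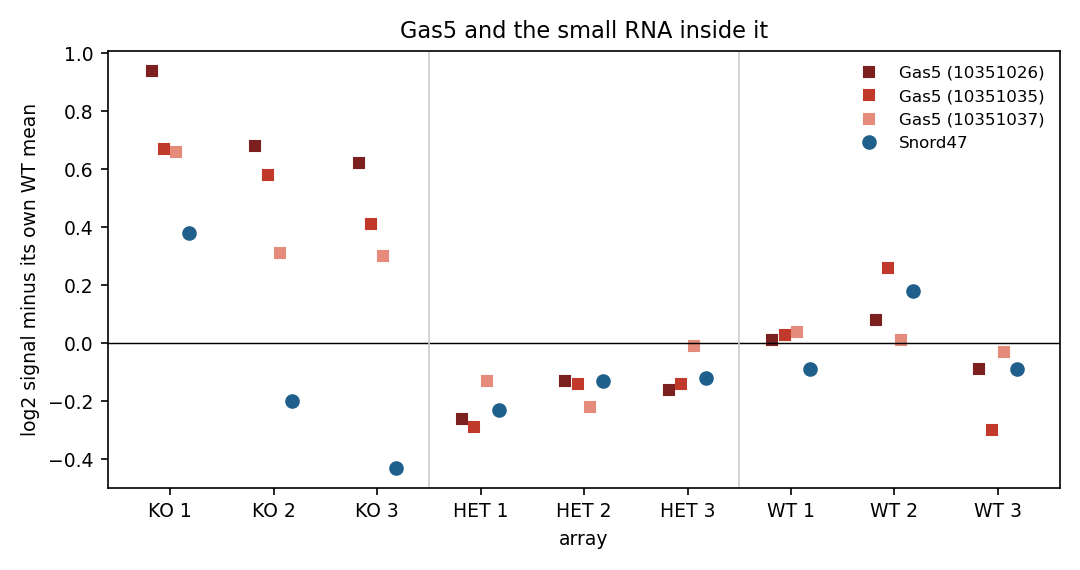
Log2 signal of each array minus the mean of the WT arrays of the same probe set, for 3 Gas5 probe sets (squares) and Snord47 (circles), with KO, HET and WT arrays from left to right. In all KO arrays the Gas5 probe sets lie above the WT mean (KO minus WT 0.42, 0.56 and 0.75), while Snord47 lies above it in KO 1 and below it in KO 2 and KO 3.

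Within each array, Snord47 minus Gas5 was -1.81, -2.05 and -2.26 in KO arrays, -1.63, -1.45 and -1.64 in HET arrays and -1.66, -1.36 and -1.59 in WT arrays. The 3 KO arrays had the 3 lowest values, and each value is a difference between 2 probe sets, so only its shift between genotypes can be read. KO minus WT was -0.50, with an exact two-sided permutation p of 0.1, the smallest that 3 arrays against 3 allow (0.133 adjusted over the 4 Gas5 probe sets). Against the 6 HET and WT arrays together the shift was -0.48 (exact two-sided permutation p = 0.0238, the smallest that 84 arrangements allow, and 0.0317 adjusted over the 4 Gas5 probe sets). For probe sets 10351026 and 10351035 the shift against HET and WT was -0.84 and -0.65, each with that same smallest p. The shifts use the same Snord47 values and probe sets of 1 gene, so they are not separate evidence. The dim probe set 10351039 gave -0.13 (exact permutation p = 0.738), and 0.05 against WT alone (0.7). For the brightest Gas5 probe set, leaving out 1 KO or WT array at a time kept the shift against WT between -0.62 and -0.39.

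**Figure D3:**
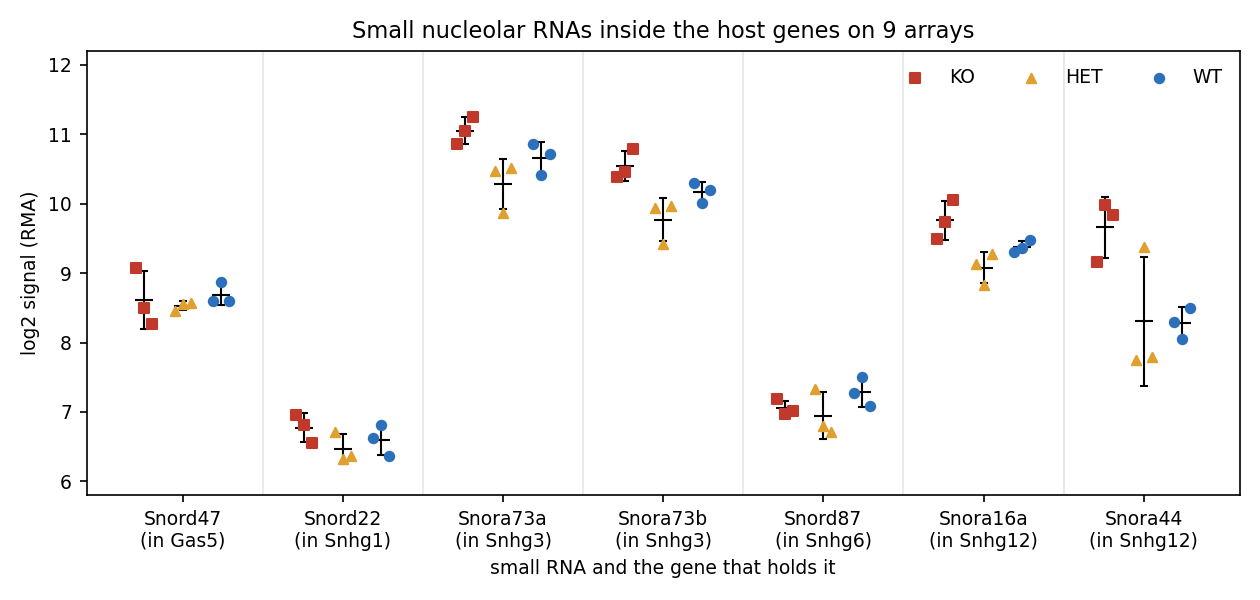
Log2 signal of the 7 small nucleolar RNAs that lie inside the hosts and have their own probe set, on each array, with KO, HET and WT from left to right. Points are arrays and bars the mean ± SD of 3 arrays. Snora44 is higher in KO than in WT on all arrays, and HET 2 (9.37) lies within the range of the KO arrays.

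The other 6 small RNAs lie inside hosts that no probe set names alone, so they stand without their hosts. Of all 7, 1 was higher in KO than in WT (Snora44) and 4 were higher in KO than in HET (Snora44, Snora16a, Snora73a and Snora73b), with 0 lower in either comparison. Among all genes tested 8.27% were higher against WT and 8.17% against HET. The median KO minus WT difference of the 7 was 0.38 and their median KO minus HET difference 0.68, while the median over all genes was -0.005 against WT. For HET minus WT 0 of the 7 passed and their median was -0.30. The mean of KO was above that of WT in 5 of the 7, and the mean of HET in 1. No gene passed between HET and WT in the limma fit (0 of 13207), and 327 had an unadjusted p under 0.05. Rnh1 itself did not pass there, so a small RNA without a call may still differ.

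Snora44 and Snora16a, 2 box H/ACA snoRNAs, lie inside Snhg12. Snora44 was at 9.16, 9.98 and 9.83 in KO arrays, 7.75, 9.37 and 7.79 in HET arrays and 8.29, 8.05 and 8.50 in WT arrays. KO lay above WT without overlap, whereas HET 2 lay among the KO arrays. KO minus WT was 1.37, or 2.59-fold (SE 0.40, interval 0.46 to 2.29, limma adjusted p = 0.0382), and KO minus HET was 1.35 (adjusted p = 0.0424). Without any single array among WT 1, WT 2, WT 3, KO 2 and KO 3 the call against WT was lost (adjusted p from 0.0611 to 0.118), and also without WT 2 and KO 1 together (1.51, 0.0692) and with Eif2s3y as a covariate (1.29, 0.0544). The call against HET was lost in 10 alternatives (adjusted p from 0.0528 to 0.144). Snora16a was at 9.49, 9.74 and 10.05 in KO arrays, 9.13, 8.83 and 9.27 in HET arrays and 9.31, 9.36 and 9.47 in WT arrays. It was higher in KO than in HET by 0.68 (limma adjusted p = 0.0129, and 0.56 and 0.0501 with Eif2s3y as a covariate). Its KO minus WT difference was 0.38 (adjusted p = 0.0936), which passed without KO 1 (0.52, 0.0284). HET minus WT was -0.30 (adjusted p = 0.939). KO lay just above WT and HET just below WT without overlap, as 15.8% and 5.98% of all genes did.

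Snora73a and Snora73b lie inside Snhg3, which RefSeq places on chromosome 4 with 2 genes (Trnau1ap and Rcc1) between it and Snhg12. They are the mouse forms of U17, a box H/ACA RNA that acts in cleavage of the ribosomal RNA precursor. Snora73a was at 10.86, 11.04 and 11.25 in KO arrays, 10.47, 9.86 and 10.51 in HET arrays and 10.86, 10.41 and 10.71 in WT arrays. Snora73b was at 10.38, 10.46 and 10.79 in KO arrays, 9.93, 9.42 and 9.96 in HET arrays and 10.29, 10.01 and 10.20 in WT arrays. For both, KO lay above HET without overlap, and their sequences are near copies, so their probe sets may share signal. KO minus HET was 0.77 for Snora73a (limma adjusted p = 0.0198) and 0.78 for Snora73b (0.0103), while KO minus WT was 0.39 (0.159) and 0.38 (0.117). HET minus WT was -0.38 and -0.40 (adjusted p = 0.939 for both), so part of each KO minus HET difference lies between HET and WT. For Snora73b, KO lay above WT and HET below WT without overlap, as 15.8% and 5.98% of all genes did. The Snora73a call against HET was lost without KO 2 (0.0516) or KO 3 (0.0606), and with Eif2s3y as a covariate (0.067).

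Snord22 and Snord87, box C/D snoRNAs inside Snhg1 and Snhg6, did not pass between any pair of genotypes. Snord22, near the cut-off of the filter on low signals (6.35 to 6.57), was at 6.96, 6.81 and 6.55 in KO arrays, 6.71, 6.32 and 6.37 in HET arrays and 6.63, 6.81 and 6.36 in WT arrays. Its KO minus WT difference was 0.17 (limma adjusted p = 0.423) and its KO minus HET difference 0.30 (0.188), which passed with Eif2s3y as a covariate (0.49, 0.0324). Snord87 was at 7.18, 6.97 and 7.01 in KO arrays, 7.33, 6.80 and 6.71 in HET arrays and 7.28, 7.5 and 7.08 in WT arrays, with KO minus WT -0.23 (adjusted p = 0.325). In both the genotypes overlapped.

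Snhg7 and Snhg8 appear only on probe sets that also name a small RNA, so host and small RNA cannot be told apart there. The probe set of Snora43 and Snhg7 was at 8.60, 8.88 and 8.86 in KO arrays, 8.49, 8.59 and 8.68 in HET arrays and 8.57, 8.48 and 8.56 in WT arrays. KO lay just above WT without overlap, with a difference of 0.24 (adjusted p = 0.0817 over all probe sets). It passed without KO 1 (0.33, 0.0129), without WT 2 and KO 1 (0.30, 0.033) and with array weights (0.27, 0.00449). The probe set of Snora24 and Snhg8 was at 8.70, 7.72 and 7.86 in KO arrays, 8.22, 7.84 and 8.22 in HET arrays and 8.22, 8.48 and 8.22 in WT arrays. KO 1 held the highest value and KO 2 the lowest, and KO minus WT was -0.21 (adjusted p = 0.545). Without KO 1 it was -0.52 (adjusted p = 0.0298).

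**Figure D4:**
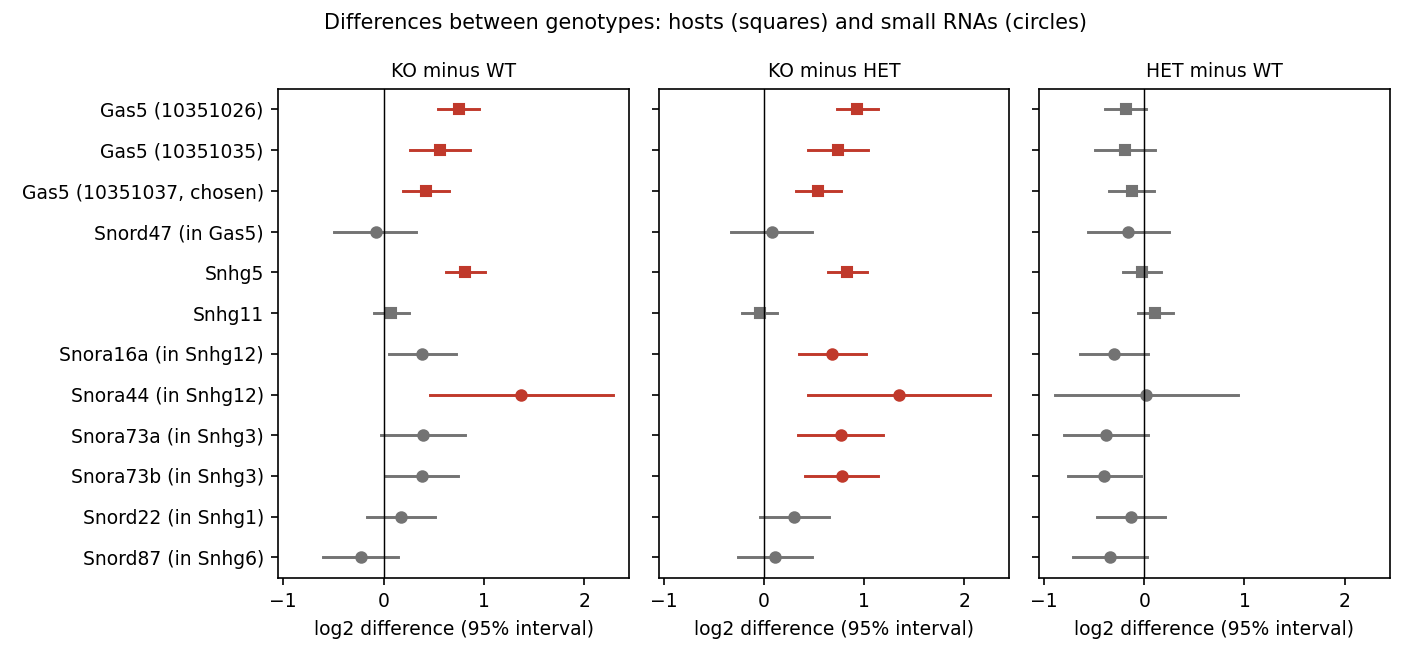
Differences in log2 signal with their 95% intervals from limma, for the hosts (squares) and the small RNAs inside them (circles), as KO minus WT, KO minus HET and HET minus WT from left to right. Red marks an adjusted p under 0.05. Snhg5 (0.81) and Gas5 (0.42) are past the test against WT, and no feature is past it for HET minus WT.

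Other noncoding snoRNA hosts were set beside them as a second group. The lists here and below were chosen with earlier results of these data known, so their counts beside all genes are descriptive. Of 15 listed genes 6 could be tested, and 4 were higher in KO than in WT with 0 lower, beside 8.27% higher and 15.2% lower among all genes. The list's median difference was 0.38, against -0.005 for all genes. Dancr, the host of Snora26, was at 7.63, 7.67 and 7.40 in KO arrays, 7.17, 7.23 and 7.14 in HET arrays and 7.23, 7.19 and 7.07 in WT arrays. It was higher in KO than in WT by 0.40 (limma adjusted p = 0.00894) and than in HET by 0.38 (0.0113). Snhg17, which lies next to Snhg11 on chromosome 2, was at 9.79, 9.66 and 9.59 in KO arrays, 9.34, 9.18 and 9.44 in HET arrays and 9.33, 9.39 and 9.26 in WT arrays. It was higher in KO by 0.35 against WT (0.0165) and by 0.36 against HET (0.0165); its difference from the neighbouring Snhg11 was not tested. Snhg15 was higher in KO than in WT by 0.22 (adjusted p = 0.0361), a call lost in 11 of 22 alternatives (0.0519 to 0.146), and its difference from HET was 0.18 (0.0809). Meg3, an imprinted RNA in which RefSeq places no snoRNA gene, was higher than in WT by 0.90 (adjusted p = 0.0258), and its difference from HET was 0.55 (0.136). Without it and the neighbouring Rian the count against WT was 3 of 4 with a median of 0.29. Against HET 2 of the 6 passed, both higher, beside 8.17% of all genes. The 4 calls became 2 without WT 1, without WT 3 or without KO 1.

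Protein-coding genes that carry snoRNAs in their introns were set beside them in the same way. Of 41 listed genes 33 were tested, of which 3 were higher and 2 lower in KO than in WT, beside 23.5% of all genes past the test (8.27% higher and 15.2% lower). Their median difference was 0.07. RefSeq places a snoRNA gene inside 31 of the 33. Rpl12, a protein of the large ribosomal subunit, was higher by 0.57 (limma adjusted p = 0.00683), and Rps12, of the small subunit, by 0.21 (0.0319; 0.14 and 0.183 with the arrays centred on their medians). Ptcd3, a mitochondrial ribosome-associated protein, fell by 0.30 (adjusted p = 0.0284). Nfs1, the cysteine desulfurase of iron-sulfur cluster assembly, fell by 0.42 (0.00249), although RefSeq places no snoRNA gene inside it. The count of 5 was 2 without WT 1, WT 2 or KO 2 and 3 without WT 3. The 35 small nucleolar and Cajal body RNAs tested that lie outside the 9 hosts had 18 members higher in KO than in WT and 0 lower, beside the same 8.27% and 15.2% of all genes, with a median difference of 0.43.

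**Figure D5:**
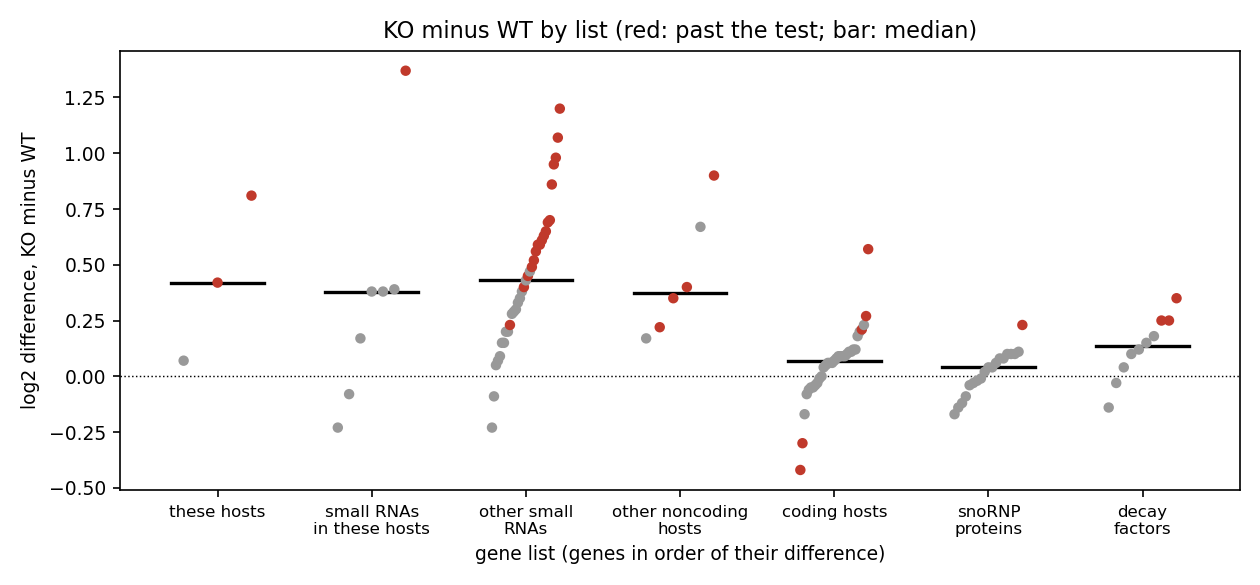
KO minus WT difference in log2 signal of every tested gene, by gene list. Each point is a gene, red marks an adjusted p under 0.05 and the bar the list median. The noncoding hosts and the small RNAs have medians near 0.4, and the coding hosts (0.07) and snoRNP proteins (0.04) near 0.

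The proteins that package snoRNAs and the factors that degrade spliced host RNA were measured as well, and the share of all genes to read their counts against is 8.27% higher and 15.2% lower. Of 19 snoRNP proteins and assembly factors tested, of 20 listed, 1 was higher in KO than in WT and 0 lower, with a median difference of 0.04. That gene was Gar1, a core protein of box H/ACA particles, at 0.23 (limma adjusted p = 0.0434). Leaving out any one array but KO 1 ended its call, at adjusted p values between 0.0571 and 0.124, as did fitting arrays centred on their medians (0.16, 0.128). Among the next in order of p, Ruvbl1, an assembly ATPase, had a difference of -0.14 (0.137), Dkc1, the pseudouridine synthase, -0.17 (0.152) and Snu13, a box C/D core protein, 0.10 (0.228). Of 10 nonsense-mediated decay factors tested, of 14 listed, 3 were higher and 0 lower, with a median difference of 0.13. Smg5, which acts in dephosphorylation of Upf1, was at 10.41, 10.22 and 10.09 in KO arrays, 9.84, 9.82 and 9.83 in HET arrays and 9.91, 9.91 and 9.84 in WT arrays, and its difference from WT was 0.35 (adjusted p = 0.013). Smg8, a subunit of the Smg1 kinase complex, was higher by 0.25 (0.0117), and Rbm8a, of the exon junction complex, by 0.25 (0.0154). Smg6, an endonuclease of the pathway, had a difference of 0.18 (0.0834). With each array centred on its median, 0 of the 10 passed, and the split of all calls moved to 577 higher and 2529 lower, against 1092 higher and 2009 lower.

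The genes whose pattern over the 9 arrays was most like the mean of the 3 measured hosts were found by Pearson correlation, as a description over arrays that share their genotypes. They were Troap (r = 0.994), a spindle-associated protein, Kmt2b (0.99), a histone methyltransferase, Srsf11 (0.986), a splicing factor, Jmjd4 (0.986) and Amotl2 (0.981), a protein of cell junctions. Their KO minus WT differences were 0.28, 0.48, 0.18, 0.26 and 0.65.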

How the data were processed

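Total RNA of 9 yolk sac samples was hybridised to 1-colour Affymetrix arrays, 100 ng of RNA and 5.5 µg of cDNA per array, per the labels' protocols. The deposited values are log2 signals made by the authors with RMA (Affymetrix Expression Console, version 1.2.1.20), as the submitters' processing notes record, and run from 2.46 to 13.9 with array medians from 7.07 to 7.2. No source used here gives the build of the array annotation. Of 28350 probe sets 21780 name 1 gene symbol, 1618 several and 4952 none in the platform annotation, and 0 symbols changed on update through RefSeq. RMA puts arrays on 1 scale, so a shift of total RNA would not show, but the deposited values did not share 1 identical distribution. Centring arrays on their medians moved the calls against WT from 1092 higher and 2009 lower to 577 and 2529. Quantile normalization moved them to 1471 and 1939. No 2 arrays were identical (1.55% to 8.82% of values equal).

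From these values, genes were tested where, on 3 or more of the 9 arrays, their signal passed that array's 40th percentile over all probe sets (13207, with 6726 below the filter), taking the highest mean probe set per gene. limma 3.58.1 in R 4.3.3 was fitted with a mean per genotype over all 9 arrays, with Benjamini-Hochberg adjustment over all genes tested. The fit was tested on simulated data. A single value was tested by an exact permutation test over arrays. Named genes were Rnh1, every host and measured small RNA, the 4 smallest p of each list, and the 5 genes most alike. The members and lists were chosen with earlier results of these data known. The gene lists were written from general knowledge. Alternatives changed the filter, the scaling, the probe set rule, the prior, array weights, the samples, the replicate block and the threshold. Same-numbered arrays of different genotypes had correlations of their deviations from -0.257 to 0.425, and differently numbered arrays from -0.59 to 0.413. With 3 arrays per genotype these values cannot decide whether the numbers pair samples, so pairing is unknown. Promoters are from RefSeq, build GRCm38.p6. Sequences of the small RNAs are not analysed here.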

Additional observations from a re-analysis of the deposited data

How the results depend on the processing

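Snhg5 kept its calls against WT (0.74 to 0.88) and HET in all 22 alternatives without a fold threshold, and Gas5 its call against HET. The count of hosts higher in KO than in WT was 1 with the probe sets of a gene averaged or a change of at least 1.5-fold required, and 1 to 2 with 1 array left out; against HET it was 1 with 1.5-fold. Small RNAs past the test against WT numbered 0 with no filter, with Eif2s3y as a covariate or without WT 2 and KO 1, 2 with array weights, an adjusted p under 0.1 or the replicate block (Snora16a, 0.38, adjusted p = 0.0452), and 0 to 2 with 1 array left out. Against HET they numbered 2 with Eif2s3y and 2 to 4 with 1 array left out. The replicate block also ended the calls of Gar1 (0 of 19 snoRNP proteins) and Rps12 (adjusted p = 0.0523), and moved no count by over 1.5 times other than those of the small RNAs against WT and the snoRNP proteins; no pairing is given by the labels. Other noncoding hosts past the test were 2 with only 2 genotypes fitted, 1 with 1.5-fold, and 2 to 4 with 1 array left out. Coding hosts were 3 with no filter, centred arrays or without WT 2 and KO 1, 8 with quantile normalization, the trended prior or adjusted p under 0.1, 9 with cyclic loess, 2 with only 2 genotypes, 0 with 1.5-fold, and 2 to 6 with 1 array left out. snoRNP proteins were 0 with no filter, with 2 genotypes, Eif2s3y or 1.5-fold, 2 with quantile normalization, 3 with array weights, and 0 to 1 with 1 array left out. Decay factors were 0 with centred arrays or 1.5-fold, 5 with quantile normalization, loess or array weights, and 2 to 4 with 1 array left out. Over all genes, calls against WT were 5753 with array weights, 608 with 1.5-fold and 1669 to 3842 with 1 array left out, and against HET 1739 with Eif2s3y, 567 with 1.5-fold and 1508 to 3149. Rnh1 in HET minus WT (-0.62, limma adjusted p = 0.939) passed with array weights (-0.64, 0.00597), without WT 2 and KO 1 (-0.60, 0.0329) and without KO 1 (0.0224), within -0.65 to -0.60. Values that crossed 0 were never past the test: Snhg5 HET minus WT 0.01 with quantile normalization or loess, 0.03 without WT 2 and KO 1 and -0.09 to 0.03 with 1 array left out. Snhg11 KO minus WT was -0.01 with quantile normalization and 0.0 with loess, and KO minus HET 0.04 with averaged probe sets, 0.0 with weights, 0.03 without WT 2 and KO 1 and -0.11 to 0.03 with 1 array left out. Snord47 was -0.32 to 0.09 against WT and -0.16 to 0.25 against HET with 1 array left out, and -0.02 with weights and -0.16 without WT 2 and KO 1 against HET. Snord87 against HET was -0.04 with weights and -0.01 to 0.30 with 1 array left out. Snora44 in HET minus WT was -0.02 with centred arrays, -0.09 without WT 2 and KO 1 and -0.51 to 0.30 with 1 array left out. The cause of these moves was not tested. The weights fit stopped before its tolerance was met, and 3 arrays per genotype limit every value.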
